A study of Mus musculus with 18 samples.

Results

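Blood RNA in the developing mouse cochlear nucleus was followed through 5 probe sets of 3 genes, out of 22690 probe sets on the oligonucleotide array. The probe sets were taken by their identifiers and not by their values: 1417714_x_at, 1428361_x_at and 1452757_s_at for Hba-a1 (adult alpha globin), 1417184_s_at for Hbb-b1 (adult beta globin) and 1451675_a_at for Alas2. The gene names came with this choice, and no table used here pairs the other probe sets with genes. By the array maker's naming, the endings _x_at and _s_at mark probe sets that can read more than one related transcript, and _a_at marks one that reads alternative transcripts of a gene.

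The tissue was the cochlear nucleus, the brainstem relay that receives the auditory nerve, from C57BL/6J mice at postnatal day 7 (P7, 3 arrays), day 14 (P14, 2 arrays) and day 21 (P21, 3 arrays). These mice carried no treatment or mutation according to the labels, and each array held total RNA pooled from 5 pups, so that an array averages over animals. Whether every pool came from its own animals is not stated, so a p-value here covers array-to-array spread, which may be technical. P21 replicate 1 stood apart: its label counts 2 replicates where those of the other P21 arrays count 3, and its bacterial poly-A control read 672, against 3777 to 8296 on the other 7 arrays. It was used as the third P21 array, and the calls between P21 and P7 that change without it are given both ways. The defining genes of the tissue, and of blood, vessel and other cell types, could not be looked up for want of names, so the labelled tissue was not checked.

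Haemoglobin carries oxygen as a tetramer of alpha and beta chains, each holding a heme. Alas2 makes the erythroid form of the first and rate-limiting enzyme of heme synthesis, and its transcript, like those of the globins, belongs to the last stages of red cell maturation. Reticulocytes, the young red cells still in circulation, keep these RNAs after the nucleus is lost, so a piece of tissue taken with its blood carries them, and some neurons and glia have also been reported to hold globin transcripts. In pooled tissue a smaller number of such cells and less RNA in each of them cannot be told apart.

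The proximal promoters are shown as background, because globin and Alas2 genes are textbook targets of the same erythroid factors, and were not tested against the signals. They are the 250 bases before the start of each gene in RefSeq's annotation of build GRCm38.p6, 5′ to 3′ on the gene's strand. Capitals mark GATAA (bound by GATA factors), CACCC (bound by Klf1 and relatives), CCAAT and TATAA, each searched on both strands, where neighbouring matches can overlap. Hba-a1 lies at chr11:32283672-32284486 and Alas2 at chrX:150547417-150570622. The table of promoters held Hba-a1 and Alas2, and not Hbb-b1. Hbb-bs is shown as an adult beta globin gene that this C57BL/6J assembly carries (chr7:103826523-103827928) and that shares the older names Hbbt1 and Hbbt2 with Hbb-b1.
Hba-a1 (chr11:32283422-32283671, plus strand): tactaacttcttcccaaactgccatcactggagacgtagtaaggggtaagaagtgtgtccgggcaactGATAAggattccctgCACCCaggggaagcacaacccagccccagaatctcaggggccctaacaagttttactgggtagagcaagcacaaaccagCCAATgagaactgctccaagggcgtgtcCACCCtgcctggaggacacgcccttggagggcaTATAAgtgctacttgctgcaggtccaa
Hbb-bs (chr7:103827929-103828178, minus strand): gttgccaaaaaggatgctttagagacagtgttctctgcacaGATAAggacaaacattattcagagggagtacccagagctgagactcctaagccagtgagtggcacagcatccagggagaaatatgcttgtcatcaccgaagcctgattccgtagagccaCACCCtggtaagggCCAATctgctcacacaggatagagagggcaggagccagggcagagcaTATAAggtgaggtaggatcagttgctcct
Alas2 (chrX:150547167-150547416, plus strand): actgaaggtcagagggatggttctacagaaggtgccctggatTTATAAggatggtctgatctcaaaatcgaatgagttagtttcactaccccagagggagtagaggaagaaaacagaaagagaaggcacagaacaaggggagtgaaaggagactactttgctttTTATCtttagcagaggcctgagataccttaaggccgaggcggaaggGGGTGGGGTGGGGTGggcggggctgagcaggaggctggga

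The Hba-a1 and Hbb-bs windows each held all 4 motifs, as did 0.968% of the 32851 promoter windows of this length. In both, TATAA began 27 or 29 bases before the start and CCAAT 88 or 76 bases before it. Alas2 held 1 GATAA and 3 adjoining CACCC matches, all on the opposite strand, and 2 overlapping TATAA matches, which began 207 and 208 bases before the start, but no CCAAT. Singly these motifs were common: GATAA was in 22.6% of all windows, CACCC in 52.0%, CCAAT in 33.8% and TATAA in 22.8%. The window of Hba-a2, the neighbouring alpha globin gene, matched that of Hba-a1 in 247 of 247 bases once shifted by 3, whereas those of the beta globin genes Hbb-bt and Hbb-bs matched in 127 of 249 at a shift of 1. Such matches describe letters only, and whether the probe sets read 1 gene of each pair or both was not tested.

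The strongest alpha globin probe set, 1428361_x_at, had a signal of 6777, 8371 and 8598 on the P7 arrays, 10924 and 8078 on the P14 arrays and 7563, 11986 and 10575 on the P21 arrays. These are scaled intensities of the array maker's software, brought to a common trimmed mean of 250.1, and replicates are given in the order 1, 2, 3. The ages overlapped: P21 replicate 1 lay below P7 replicates 2 and 3, and the highest P14 array lay above 2 of the P21 arrays. Beta globin, 1417184_s_at, followed the same order of arrays almost exactly, at 5345, 6905 and 7741 at P7, 9456 and 6953 at P14 and 6546, 10277 and 9623 at P21. The second alpha globin probe set, 1452757_s_at, gave 4298, 5149 and 5085 at P7, 6295 and 4319 at P14 and 4696, 6707 and 6305 at P21. In all 3 of these probe sets P7 replicate 1 was the lowest of the 8 arrays and P21 replicate 2 the highest.

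Alas2, whose signal was far dimmer, was 109, 165 and 189 at P7, 308 and 129 at P14 and 275, 267 and 258 at P21. Every P21 array lay above every P7 array, while P14 held the highest array of all and the second lowest. All Alas2 values stood above 28.2, the highest mean signal of a bacterial control that had not been added to an array.

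The remaining alpha globin probe set, 1417714_x_at, followed another order of arrays in these scaled values. It read 483, 532 and 582 at P7, 546 and 161 at P14 and 775, 744 and 540 at P21. On P14 replicate 2 it was at its lowest, and on P21 replicate 1, where the other 3 globin probe sets were low, at its highest. The 3 probe sets of Hba-a1 therefore disagree, and 1417714_x_at is described apart in what follows.

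**Figure D1:**
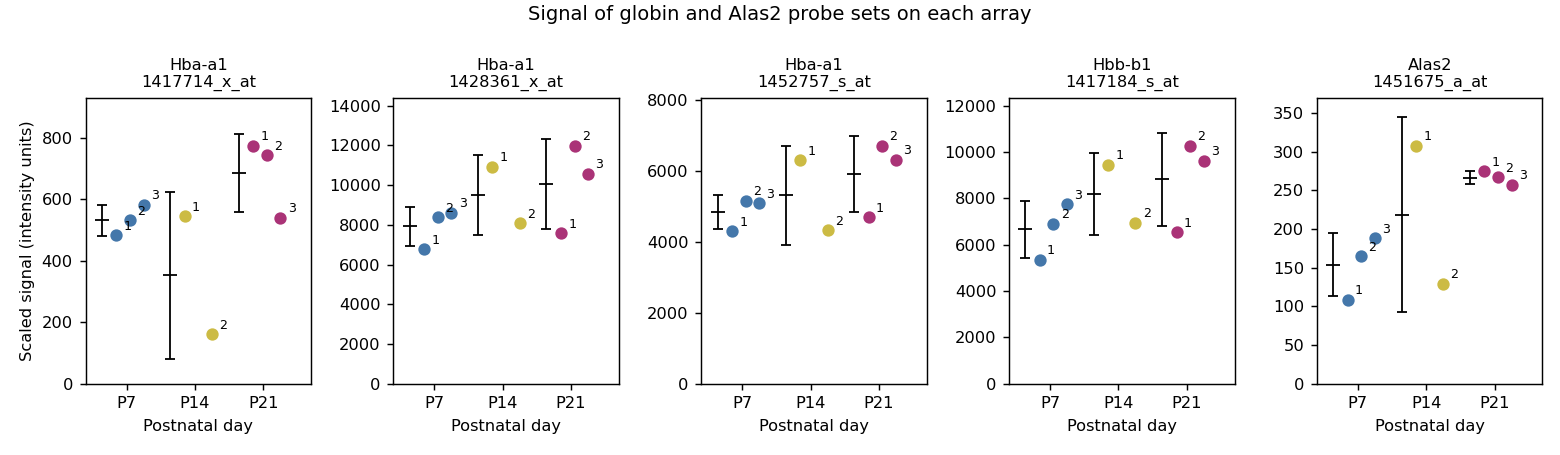
Scaled signal (intensity units, vertical axis from 0, a scale for each panel) of the 5 probe sets at P7, P14 and P21. Points are arrays with their replicate number, and the bar to the left of each group is the mean ± SD (n = 3, 2 and 3). The globin values of the ages overlap, Alas2 is at 258 to 275 on all P21 arrays against 109 to 189 on the P7 arrays, and 1417714_x_at drops to 161 on P14 replicate 2.

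P21 was compared with P7 to ask whether the level of these transcripts differed between the ends of the period. Alas2 was higher at P21, averaging 267 ± 8.81 at P21 and 154 ± 41.1 at P7 (SD, n = 3 each), or 1.71-fold with a 95% interval of 1.12 to 2.60. On the log2 scale limma put this difference at 0.77 (SE 0.27) with an adjusted p = 0.0455. No globin probe set passed the threshold of 0.05. Beta globin averaged 8815 ± 1992 at P21 and 6664 ± 1216 at P7 (log2 change 0.39, SE 0.19, adjusted p = 0.136). 1428361_x_at averaged 10041 ± 2260 at P21 and 7915 ± 992 at P7 (0.32, SE 0.18, adjusted p = 0.175), and 1452757_s_at 5903 ± 1064 at P21 and 4844 ± 474 at P7 (0.27, SE 0.16, adjusted p = 0.221). 1417714_x_at averaged 686 ± 127 at P21 and 532 ± 49.8 at P7 (0.35, SE 0.33, adjusted p = 0.446).

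The 95% intervals of the globin changes ran from 0.954 to 1.64-fold for 1428361_x_at, from 0.937 to 1.56-fold for 1452757_s_at and from 0.976 to 1.77-fold for beta globin. These intervals include no change as well as a rise of up to 1.77-fold. That of 1417714_x_at was wider, from 0.759 to 2.13-fold. Among the 5 members 1 passed, where 38.6% of the 15296 probe sets tested passed in either direction and 17.1% passed as higher at P21. The estimates of all 5 were above 0, with a median log2 change of 0.35. Over all probe sets tested the median was -0.018, and the median size of the change regardless of sign was 0.32. As 1428361_x_at, 1452757_s_at and beta globin followed each other closely across arrays, the 5 signs are not separate observations. Non-overlap of the kind seen in Alas2, with every P21 array above every P7 array, was found in 22.1% of probe sets, so it does not set Alas2 apart.

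These calls turned on single arrays. Without P21 replicate 1, the changes of 1428361_x_at, 1452757_s_at and beta globin were 0.52, 0.43 and 0.59 and passed (adjusted p = 0.0193, 0.0477 and 0.019). The Alas2 call was lost without P7 replicate 1 (0.56, adjusted p = 0.139), P7 replicate 2 (0.84, 0.0698), P21 replicate 1 (0.75, 0.0937), P21 replicate 2 (0.77, 0.105) or P21 replicate 3 (0.80, 0.0902). Across the 17 alternatives the Alas2 adjusted p ran from 0.00938 to 0.264 and missed the threshold in 9, among them the fit with the replicate number as a block (0.051).

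**Figure D2:**
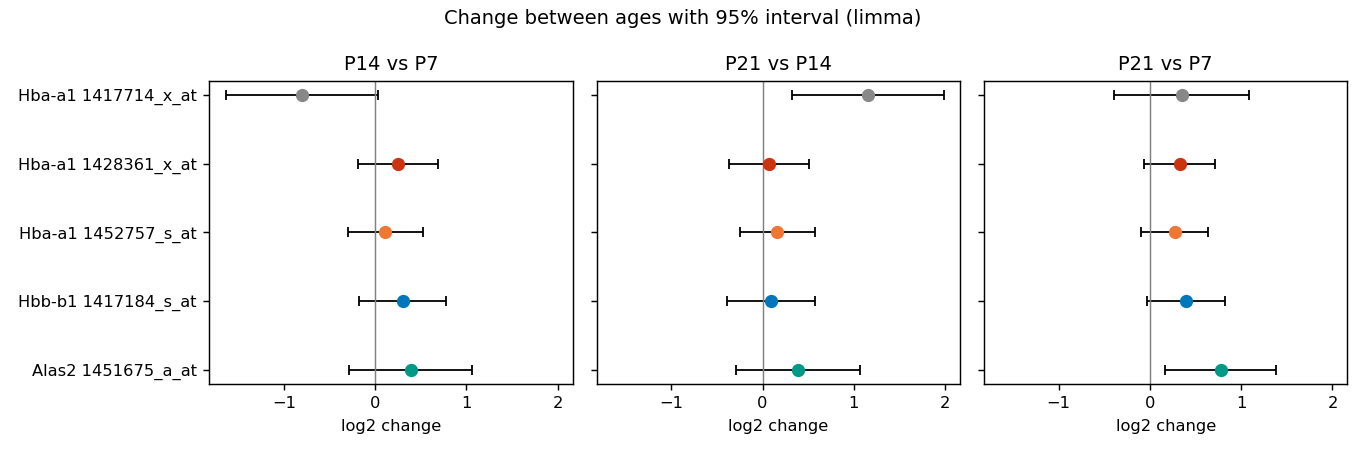
Log2 change (horizontal axis) of each probe set between P14 and P7, P21 and P14, and P21 and P7, as the fitted value with its 95% interval from the limma fit over 8 arrays. The interval of Alas2 for P21 against P7 lies above 0, those of the globins cross 0 in that comparison, and 1417714_x_at has the widest intervals.

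P14 was compared with P7 for the first interval, and P21 with P14 for the second. No member passed in either, where 29.6% and 2.05% of probe sets did. At an unadjusted p under 0.05 the limma fit counted 0 members for P14 against P7 and 1, 1417714_x_at, for P21 against P14. Over all 15296 probe sets tested, 6271 and 2969 stood under this cut. Against P7, the P14 change was 0.25 (SE 0.20) for 1428361_x_at, 0.11 (SE 0.18) for 1452757_s_at, 0.30 (SE 0.22) for beta globin and 0.39 (SE 0.31) for Alas2, with adjusted p from 0.33 to 0.697. The P14 mean of Alas2, 219 ± 126 (SD, n = 2), stands for 2 arrays that differed 2.38-fold. With P14 replicate 1 alone Alas2 was above P7 by 0.98 (adjusted p = 0.0333), and with P14 replicate 2 alone the log2 change was -0.20 (adjusted p = 0.647).

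1417714_x_at gave the largest estimates of the 5 in these intervals, with a log2 change of -0.80 (SE 0.37, adjusted p = 0.133) for P14 against P7 and 1.15 (SE 0.37, adjusted p = 0.136) for P21 against P14. They rested on P14 replicate 2. Without it the changes were 0.039 and 0.31, and without P14 replicate 1 they were -1.65 and 2.00 and passed (adjusted p = 0.00189 and 0.0176). A remaining lone P14 array is assumed to vary like the arrays of the other ages. For the P14 against P7 change minus the P21 against P14 change, no member passed, where 8.01% of probe sets did. At an unadjusted p under 0.05 the limma fit counted 1 member, and 3959 of the 15296 probe sets. This difference was -1.96 for 1417714_x_at (SE 0.67, adjusted p = 0.102). Without P14 replicate 1 that difference was -3.64 (adjusted p = 0.0277).

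In the scaled values, arrays of the same age differed more in these transcripts than in most others. After quantile normalization this held for Alas2 and 1417714_x_at. The 3 bright globin probe sets then fell below the median of all probe sets tested, and how far the normalization itself made this drop was not tested. Of these 3, 1452757_s_at and beta globin still varied more than most of the brightest probe sets. The SD of log2 signal within ages (5 residual degrees of freedom) was 0.28 for 1428361_x_at, 0.26 for 1452757_s_at, 0.31 for beta globin, 0.44 for Alas2 and 0.57 for 1417714_x_at, against a median of 0.18 over the 15296 probe sets. That places them above 82.1%, 77.4%, 87.2%, 95.8% and 98.1% of probe sets. Among the 5099 brightest probe sets by mean log2 signal, 1428361_x_at, 1452757_s_at and beta globin stood above 92.3%, 89.9% and 94.7%. Among P21 arrays, replicate 2 had 1.58 times the signal of replicate 1 for 1428361_x_at, 1.43 times for 1452757_s_at and 1.57 times for beta globin, but 0.970 times for Alas2. Between the P14 arrays, replicate 1 was higher in every member, by 1.35, 1.46 and 1.36-fold in these globin probe sets, 2.38-fold in Alas2 and 3.40-fold in 1417714_x_at.

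Alpha globin as read by 1428361_x_at and beta globin, encoded on chromosomes 11 and 7, kept nearly a fixed ratio. The log2 ratio of 1428361_x_at to beta globin had an SD of 0.066 over the 8 arrays, and its highest and lowest arrays, P7 replicate 1 and P21 replicate 3, differed 1.15-fold. Log2 signals of this pair correlated across the 8 arrays at Pearson's r = 0.985 (exact permutation p = 9.92e-05, adjusted over 10 pairs 0.000992) and Spearman's rho = 0.952 (exact p = 0.00114, adjusted 0.0112). Without the arrays farthest from the median, P14 replicate 1 and P21 replicate 2, r was 0.986, and with the age means removed it was 0.98. 1428361_x_at with 1452757_s_at gave r = 0.96 and rho = 0.929 (exact permutation, adjusted 0.00335 and 0.0112), and 1452757_s_at with beta globin gave r = 0.939 and rho = 0.881 (0.00422 and 0.0241). Without their 2 farthest arrays these were 0.914 and 0.873. The log2 ratio of 1452757_s_at to beta globin varied more, with an SD of 0.12 and a 1.29-fold span. The third alpha globin probe set, 1417714_x_at, correlated with beta globin at only r = 0.262.

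Alas2 followed the globins less closely. Its r was 0.726 with 1428361_x_at, 0.783 with 1452757_s_at and 0.761 with beta globin, with rho of 0.595, 0.619 and 0.5, and none of the 3 passed after adjustment over the 10 pairs (exact permutation, adjusted p 0.081, 0.0689 and 0.0689 for r). The log2 ratio of Alas2 to beta globin was 0.66 above its mean on P21 replicate 1 and 0.44 below it on P14 replicate 2 (log2 -0.44), a 2.15-fold span. On P21 replicate 1 the 3 brighter globin probe sets were low while Alas2 was not. 1417714_x_at correlated at r = 0.278 with 1428361_x_at, a probe set of the same gene, and their ratio spanned 4.86-fold. Its closest partner was Alas2, at r = 0.614 and rho = 0.786, which did not pass (exact permutation, adjusted 0.104 and 0.0698).

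**Figure D3:**
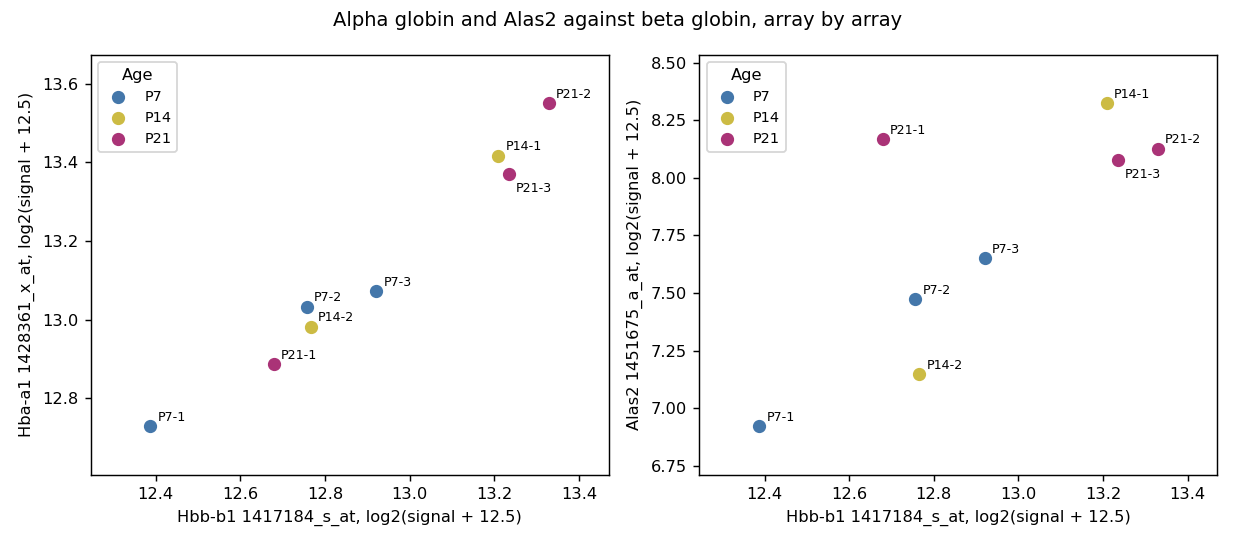
Log2(signal + 12.5) of 1428361_x_at (left) and Alas2 (right) against that of beta globin, a point for each of 8 arrays labelled by age and replicate. Alpha globin lies close to a line with beta globin (r = 0.985), while in the right panel P21 replicate 1 stands above the other arrays of like beta globin signal.

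The bright end of the arrays correlated past the threshold with 2 of the 4 globin probe sets, 1428361_x_at and beta globin, which followed each other closely. The 100 brightest probe sets other than the members, a set chosen after these values were seen, averaged 0.35 below their 8-array mean on P7 replicate 1 (log2 -0.35), -0.15 on P21 replicate 1, and 0.24, 0.13, 0.14 and 0.16 on P14 replicates 1 and 2 and P21 replicates 2 and 3. Across the 8 arrays this average correlated with 1428361_x_at at r = 0.842 and rho = 0.833 and with beta globin at r = 0.857 and rho = 0.833 (exact permutation, adjusted over the 5 members 0.0272 for each r and 0.0384 for each rho). Without P7 replicate 1 and P14 replicate 1, the arrays farthest from its median, r was 0.702 and 0.693. It did not pass with 1452757_s_at (r = 0.702, rho = 0.762, exact permutation, adjusted 0.098 and 0.0613) or with 1417714_x_at (r = -0.194, rho = 0.024, adjusted 0.712 and 0.977). With Alas2 it gave r = 0.573 and rho = 0.524, which did not pass (exact permutation, adjusted 0.175 and 0.246), and r was -0.044 without the same arrays.

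Quantile normalization gives every array the same distribution of signals, by replacing each signal with the mean over arrays at its rank. The brightest ranks leave few values to take: 1428361_x_at became 9576 on both P14 replicate 1 and P21 replicate 2. This limit on the values can lower the within-age spread of the bright globin probe sets. How much of a lower spread comes from it, and how much reflects the samples, was not tested. The SD of these probe sets was then 0.12 for 1428361_x_at, 0.16 for 1452757_s_at and 0.17 for beta globin, above 26.1%, 43.8% and 45.1% of probe sets. Among the brightest probe sets alone they stood above 45.4%, 65.3% and 66.6%. Alas2 and 1417714_x_at stayed at an SD of 0.43 and 0.55. The P21 against P7 changes of the 3 globin probe sets were then 0.15, 0.11 and 0.22 (adjusted p = 0.213, 0.472 and 0.131), each smaller than its scaled estimate. The same limit of the method applies to these smaller changes. Alas2 changed by 0.86 (SE 0.27, adjusted p = 0.0292).

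In these quantile-normalised values the members shared their lowest arrays, though not the order of the rest. The 2 lowest arrays were P7 replicate 1 and P14 replicate 2 for all 5 probe sets, while the highest was P21 replicate 1 for 2 of them, P14 replicate 1 for Alas2 and P21 replicate 2 for 1452757_s_at, with P14 replicate 1 and P21 replicate 2 level for beta globin. 1428361_x_at was 7858 on P7 replicate 1 and 8103 on P14 replicate 2, and 8762 to 10216 elsewhere. Beta globin was 6257 and 6746 on these arrays and 7195 to 8542 elsewhere, and Alas2 103 and 137 against 158 to 314. Of the 10 pairs of members, 8 then correlated with an adjusted p under 0.05, against 3 in the scaled values, and the closest pair was Alas2 with beta globin at r = 0.942 and rho = 0.952 (exact permutation, adjusted 0.00198 and 0.0119). Without P7 replicate 1 and P14 replicate 2, which were also the arrays farthest from the median of beta globin, r was 0.824. The 3 pairs that had passed in the scaled values had a lower r after quantile normalization. It was 0.869 for 1428361_x_at with beta globin, 0.711 for 1428361_x_at with 1452757_s_at and 0.767 for 1452757_s_at with beta globin. The second of these did not pass on rho (0.635, exact permutation, adjusted 0.0999). 1417714_x_at then followed its own gene's other probe sets more closely, at r = 0.696 with 1428361_x_at and 0.934 with 1452757_s_at (exact permutation, adjusted 0.0488 and 0.016). Their rho was 0.91 and 0.69, and that with 1452757_s_at did not pass (exact permutation, adjusted 0.0123 and 0.0771).

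**Figure D4:**
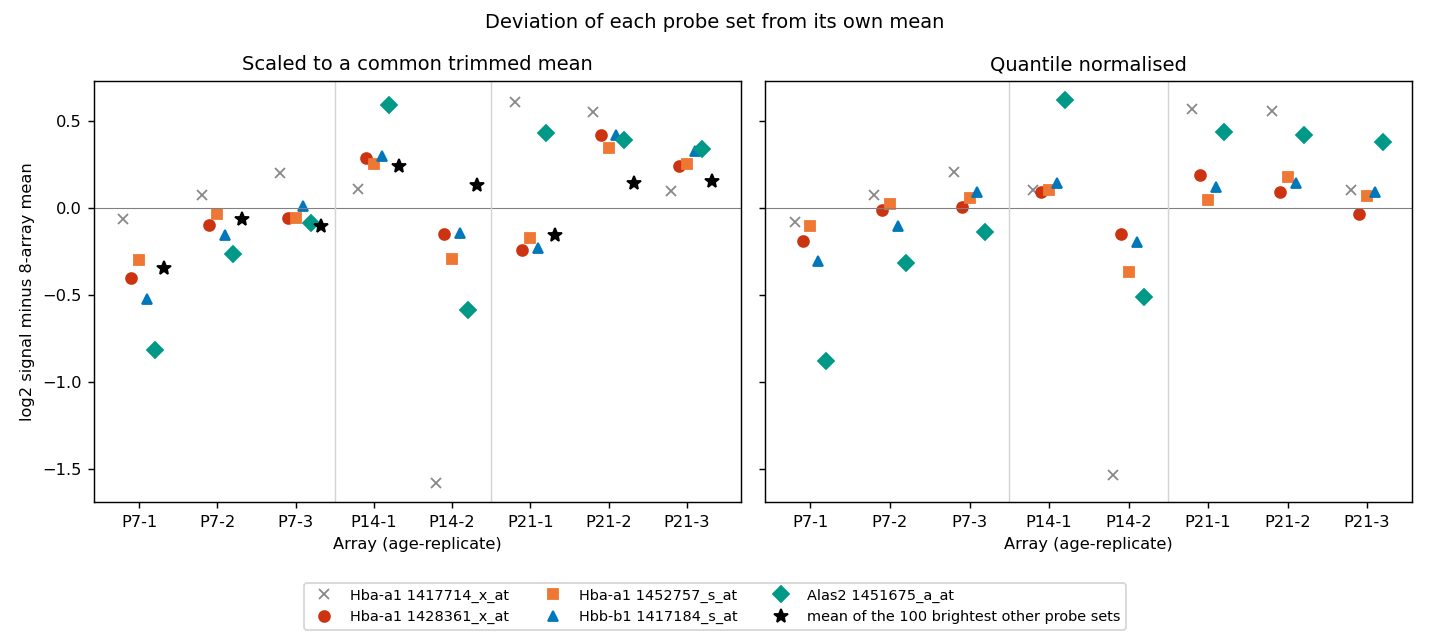
Deviation of log2 signal from the 8-array mean (vertical axis) for each probe set on each array, in scaled values (left) and after quantile normalization (right). Stars on the left are the mean of the 100 brightest other probe sets. On the right all 5 probe sets have P7 replicate 1 and P14 replicate 2 as their 2 lowest arrays. The 3 bright globin probe sets have a smaller spread within ages there, although on P14 replicate 2 1452757_s_at lies at -0.37, against -0.29 on the left.

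Other features of the arrays were set beside these values. The 3′ to 5′ ratio of the Gapdh control probe sets, a measure of RNA integrity, lay between 0.782 and 0.904 and that of beta actin between 1.01 and 1.17. P7 replicate 1, the lowest array for 4 of the 5 members, had the highest of both, 0.904 and 1.17. P21 replicate 1, where the 3 bright globin probe sets were low, had 0.824 and 1.13, the second highest for actin. P14 replicate 2, where Alas2, 1417714_x_at and 1452757_s_at were low, had 0.791 and 1.02, and P14 replicate 1 had 0.782 and 1.05. The 5′ part of 18S ribosomal RNA varied from 38.6 to 6137, with its highest values on P7 replicate 2 and P21 replicate 3, which were not extreme in any member. On P21 replicate 1 it read 1197. The 3′ part read 1966 on P21 replicate 1, between 5221 on P21 replicate 3 and 1614 on P7 replicate 2. The part of these measures in the results was not tested.

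Arrays also differed in which bacterial poly-A control had been added, and the age comparisons differed with it. P7 replicates 1 and 2 and P14 replicate 1 carried dap, and among them P14 was higher than P7 by 0.54 for 1428361_x_at, 0.42 for 1452757_s_at, 0.64 for beta globin and 1.13 for Alas2 on the log2 scale. P7 replicate 3, P14 replicate 2 and P21 replicate 1 carried lys, and there the P14 minus P7 differences were -0.090, -0.24, -0.15 and -0.50 in the same order of genes. Between the P21 and P7 arrays with lys, Alas2 differed by 0.52, while 1428361_x_at, 1452757_s_at and beta globin differed by -0.18, -0.11 and -0.24. For 1417714_x_at the P14 minus P7 difference was 0.10 with dap and -1.78 with lys. These are differences between 1 or 2 arrays a side with no test. The other P21 arrays each carried a control of their own, phe and trpn.

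Outside the members, the probe sets most like the globins are given by identifier, as their genes are not named here. Likeness was Pearson's r over the 8 arrays with the mean profile of the 4 globin probe sets, as a description with no test. The highest were 1450076_at (r = 0.976) and 1420495_a_at (r = 0.955), and the tenth had 0.912. Alas2 itself had r = 0.838 with that profile, above 99.5% of the probe sets tested, and 1417714_x_at, which is part of it, 0.592. With the age means removed, 1435276_a_at (r = 0.992) and 1448392_at (r = 0.989) came first, and Alas2, at 0.795, stood above 96.7% of probe sets. Of these 4, 1448392_at passed between P21 and P7, with a log2 change of 0.89 (limma adjusted p = 0.000113), and 1450076_at, 1420495_a_at and 1435276_a_at did not (adjusted p = 0.19, 0.0598 and 0.202).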

How the data were processed

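Both deposited tables hold intensity values, 1 per probe set or spot, and per the submitters' processing notes the oligonucleotide arrays were processed in GCOS (version not given in the sources used here). Each of the 8 deposited columns had a 2%-trimmed mean of 250.1, so these intensity values had been scaled before deposit. The 10 channels of the spotted cDNA array carry clone identifiers without gene names and were not analysed here.

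Signals were rescaled to the common trimmed mean. Testing covered 15296 of 22690 probe sets, all 5 members among them: 64 control sets and those averaging below 50.0 were dropped. limma 3.58.1 in R 4.3.3 (lmFit, eBayes with a trend) was fitted across all these probe sets to log2(signal + 12.5) on 8 arrays, so that fold changes are on the log2(signal + pseudocount) scale and understate those of dim probe sets. Ages were contrasted in two-sided tests at a threshold of 0.05 after Benjamini-Hochberg adjustment across all tested probe sets. Correlations across arrays used exact permutation tests over all pairings (scipy 1.17.1), two-sided. Alternatives were quantile normalization, unscaled values, other pseudocounts and filters, no trend, blocks and leaving out each array. Arrays have no read depth, and their number limits the precision.

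The members and lists were chosen with earlier results of these data known. All 5 members are named, and of other probe sets the 2 most alike by each measure, since 0 probe set identifiers matched the gene table. For that reason the lists of heme, iron, red cell, platelet, leukocyte, vessel and other cell type genes were not run.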

Additional observations from a re-analysis of the deposited data

How the results depend on the processing

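The count of members past the threshold between P21 and P7 was 1, and 0 with no filter, with no trend, with the replicate block and when the poly-A control was the block (1, 1, 1 and 0 at an unadjusted p under 0.05). Over all probe sets tested in these settings, 8275, 7150, 7328 and 4530 had an unadjusted p under 0.05. Leaving out each array gave 0 to 3 members for this comparison and 0 to 1 for each of the other 3. In those the single call was 1417714_x_at without P14 replicate 1, or Alas2 for P14 against P7 without P14 replicate 2. Over all probe sets, the leave-out counts ran from 4777 to 5682 for P21 against P7, 2386 to 4781 for P14 against P7, 0 to 465 for P21 against P14 and 53 to 1181 for the difference between intervals, against 5907, 4524, 313 and 1225. The count of 0 came without P14 replicate 2, with 1764 at an unadjusted p under 0.05. For P21 against P14 the count was 109 with no filter, 121 with no trend and 0 with the poly-A block (2070 unadjusted). For the difference between intervals it was 793 with no trend and 68 with the poly-A block, and for P21 against P7 1938 with that block. The poly-A block leaves P21 resting on replicate 1, so fewer arrays carry its comparisons. The median within-age SD of the members was 0.31, and 0.17 after quantile normalization, a setting chosen after seeing the data. How far that setting by itself narrows the spread of the brightest probe sets was not tested. The same setting brought 5 further pairs of members past the threshold for correlation.

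Signs changed only where the member had not passed. After quantile normalization the P14 against P7 change of 1452757_s_at was -0.12, and the differences between intervals of 1428361_x_at and 1417184_s_at were -0.071 and -0.064. That of 1451675_a_at was -0.0032 with the smaller pseudocount. With the replicate block, 1417184_s_at was -0.0033 for P21 against P14, and 1452757_s_at 0.042 for the difference between intervals. With the poly-A block, 1428361_x_at and 1417184_s_at were -0.0061 and -0.015 for P21 against P7. For P21 against P14, 1428361_x_at, 1452757_s_at and 1417184_s_at were then -0.27, -0.066 and -0.31, and for the difference between intervals 1452757_s_at was 0.21 and 1451675_a_at -0.13. Leaving out each array, P14 against P7 ran from -1.65 to 0.039 for 1417714_x_at, -0.16 to 0.38 for 1452757_s_at and -0.20 to 0.98 for 1451675_a_at. P21 against P14 ran from -0.15 to 0.29 for 1428361_x_at, -0.11 to 0.43 for 1452757_s_at, -0.13 to 0.31 for 1417184_s_at and -0.20 to 0.98 for 1451675_a_at. The difference between intervals ran from -0.25 to 0.62, -0.59 to 0.49, -0.24 to 0.65 and -1.18 to 1.18 in the same order. The cause of these changes was not tested.

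Whether arrays of the same replicate number share more than the number was not tested. The deviations of P21 and P7 arrays from their age means correlated at 0.28, -0.015 and 0.13 for numbers 1, 2 and 3. P7 replicates 1 and 3 were closest to the P21 array of their own number, and P7 replicate 2 was closest to P21 replicate 3 (0.22). With the replicate number as a block, the call of 1451675_a_at between P21 and P7 was lost (adjusted p of 0.051), while its log2 change of 0.77 cannot move, since both ages hold numbers 1 to 3.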

Other observations

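The control probe sets whose identifiers name the mouse transferrin receptor bear on iron uptake, which in brain is a task of vessel endothelium and in the red cell lineage feeds heme synthesis. The probe set of its 3′ part had a signal of 74.8, 91.1 and 154 on the P7 arrays, 349 and 196 on the P14 arrays and 159, 176 and 239 on the P21 arrays. The P14 and P21 arrays all lay above all P7 arrays, though P21 replicate 1 only narrowly (159 against 154 on P7 replicate 3). Of the probe sets tested, 22.1% had every P21 array above every P7 array, and the share with every P14 array above every P7 array was not counted. P14 replicate 1 was the highest of the 8 and P7 replicate 1 the lowest, as for Alas2, but P14 replicate 2, the second lowest for Alas2, was the third highest here. The middle and 5′ parts were dimmer, at 18.3 to 72.1 and 23.5 to 82.3. Both fell on some arrays below 28.2, the highest mean signal of a bacterial control that had not been added. Control probe sets stood outside the fit, so no test is given.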
